A study of Mus musculus with 8 samples.

Results

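Aminoacyl-tRNA synthetases are the enzymes that attach each amino acid to its matching transfer RNA before protein synthesis. A list of 36 such genes was followed in mouse oocytes with and without Dicer, 20 for the cytosolic enzymes and 16 for the mitochondrial enzymes, whose symbols end in 2. Genes were taken by their symbol in the platform annotation, with Mars1 read as Mars, and of the probe sets of a gene the brightest on average across the 8 arrays stood for it. Of the 36 genes, 35 were measured among 18193 genes in all, and Dars was not analysed here.

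Cells keep separate sets of these enzymes for the cytosol and for mitochondria, both encoded in the nucleus. Gars and Kars are single genes that supply both compartments. The enzymes fall into class I and class II, which differ in the fold of the catalytic domain, and several cytosolic enzymes are held together in the multisynthetase complex. A transfer RNA left without its amino acid activates the kinase GCN2, and through phosphorylation of eIF2 this raises translation of Atf4, a transcription factor whose known targets include many cytosolic synthetases. The growing oocyte stores the transcripts and ribosomes on which the early embryo draws.

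The arrays came from fully grown germinal vesicle oocytes of 4 wild-type females and 4 females labelled Dicer knockout, all of 129/C57BL6 strain and all primed with eCG, a gonadotropin that makes follicles grow. Cumulus cells had been removed by pipetting, and 20 oocytes per mouse gave the RNA for 1 array. The labels give neither the age of the mice nor the promoter or cell type in which the gene was deleted, and the word knockout stands here for the arrays so labelled. RNA of 20 oocytes is averaged on each array, so fewer cells holding a transcript and less of it per cell cannot be told apart.

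Dicer1 signal was higher on the knockout arrays, at 14.26 to 14.36 in log2 units against 13.04 to 13.31 in the brighter of its probe sets. Which exons were removed is not stated, so this does not check the genotype. Array medians lay between 6.35 and 6.43. Arrays correlated at 0.9915 to 0.9947 within groups and at 0.9797 to 0.9865 between them, over probe sets, which are not independent replicates. All 13 oocyte markers averaged at least 9.04 in wild type, and 5 of them fell and 0 rose. Of 16 measured markers of cumulus and granulosa cells, 9 fell and 0 rose. Over all genes 8.18% rose and 12.8% fell. The summed linear signal of these 16 genes, relative to the wild-type mean, was 80.9% to 121% on wild-type arrays and 51.7% to 69.8% on knockout arrays. Of 10 measured markers of other ovarian and blood cells, Cd68, a macrophage marker, rose 2.24-fold (limma, adjusted p = 5.36e-05), and Kdr and Tek, receptors of blood vessel lining, fell. The other 7 did not pass. Among them were the blood cell markers Adgre1 (log2 difference 0.18, limma, adjusted p = 0.252) and Ptprc (-0.03, adjusted p = 0.867), and Pecam1 of blood vessel lining (-0.32, adjusted p = 0.108). The summed signal of these 10 genes was 95% to 105% on wild-type and 86.2% to 96.3% on knockout arrays. Synthetases are expressed in every cell type, and the part of these other cells in the differences below was not tested.

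Start-site windows of the synthetase genes are shown because members that moved in opposite directions carry the same letters. Each window runs from 250 bases before to 50 bases after a gene's start in RefSeq (build GRCm38.p6), and 27 of the 36 genes had one. They were searched on both strands for TGATGNAA, the core of the element through which Atf4 and its partners bind, and overlap with other motifs was not examined. The letters were in the windows of 5 of 13 cytosolic genes and 0 of 14 mitochondrial genes, against 4.51% of 27025 genes with a window and 3.97% of all 32851 windows of this length. The 5 genes were Aars, Gars, Iars, Tars and Yars. The Aars window holds the letters at 2 places, at bases 139 and 260 of 300, and is given whole (chr8:111033592-111033891, plus strand). For the other 4 genes the matching stretch is given with 30 bases on either side (Gars chr6:55037941-55038008, plus strand; Iars chr13:49682107-49682174, plus strand; Tars chr15:11399636-11399703, minus strand; Yars chr4:129189876-129189943, plus strand). Capitals mark the match, which lies on the strand of the gene in Yars and on the opposite strand in the others.
Aars: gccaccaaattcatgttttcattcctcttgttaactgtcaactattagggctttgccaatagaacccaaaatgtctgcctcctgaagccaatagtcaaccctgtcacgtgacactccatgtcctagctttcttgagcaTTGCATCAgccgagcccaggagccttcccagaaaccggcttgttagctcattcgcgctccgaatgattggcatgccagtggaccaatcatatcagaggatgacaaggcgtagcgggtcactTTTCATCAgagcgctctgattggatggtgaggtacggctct
Gars: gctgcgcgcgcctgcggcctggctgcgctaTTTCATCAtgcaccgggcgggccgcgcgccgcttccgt
Iars: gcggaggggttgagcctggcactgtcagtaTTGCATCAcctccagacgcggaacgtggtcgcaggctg
Tars: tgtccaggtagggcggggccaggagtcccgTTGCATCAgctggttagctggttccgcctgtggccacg
Yars: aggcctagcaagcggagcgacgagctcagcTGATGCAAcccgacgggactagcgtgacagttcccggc

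The letters TTGCATCA are shared by Aars, Iars and Tars, and Yars holds their reverse complement. A match is a description of these windows and not evidence of binding. No window was found in the table for Cars, Hars, Lars, Nars, Rars, Vars, Wars, Hars2 and Pars2.

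Among the cytosolic enzymes, the genes for the alanyl, asparaginyl, glycyl and seryl enzymes rose in knockout oocytes, and the genes for the threonyl enzyme and the beta subunit of the phenylalanyl enzyme fell. That makes 4 that rose and 2 that fell of 19 measured, where over all genes 8.18% rose and 12.8% fell at an adjusted p under 0.05 (Benjamini-Hochberg over all 45037 probe sets). Among the mitochondrial enzymes, 0 of 16 rose, and the genes for the arginyl, prolyl and tryptophanyl enzymes fell. The median log2 difference, knockout minus wild type, was 0.19 over the cytosolic genes and 0.02 over the mitochondrial genes, beside 0.00267 over all genes. The difference between these medians was not tested. Single members ranged from -0.62 to 0.88. At an unadjusted p under 0.05, limma gave 2 mitochondrial genes above 0, Iars2 and Nars2, and 4 below, the 3 that fell and Lars2. The share of all genes at this unadjusted cut is not given, so counts at it, here and below, have no background beside them.

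**Figure D1:**
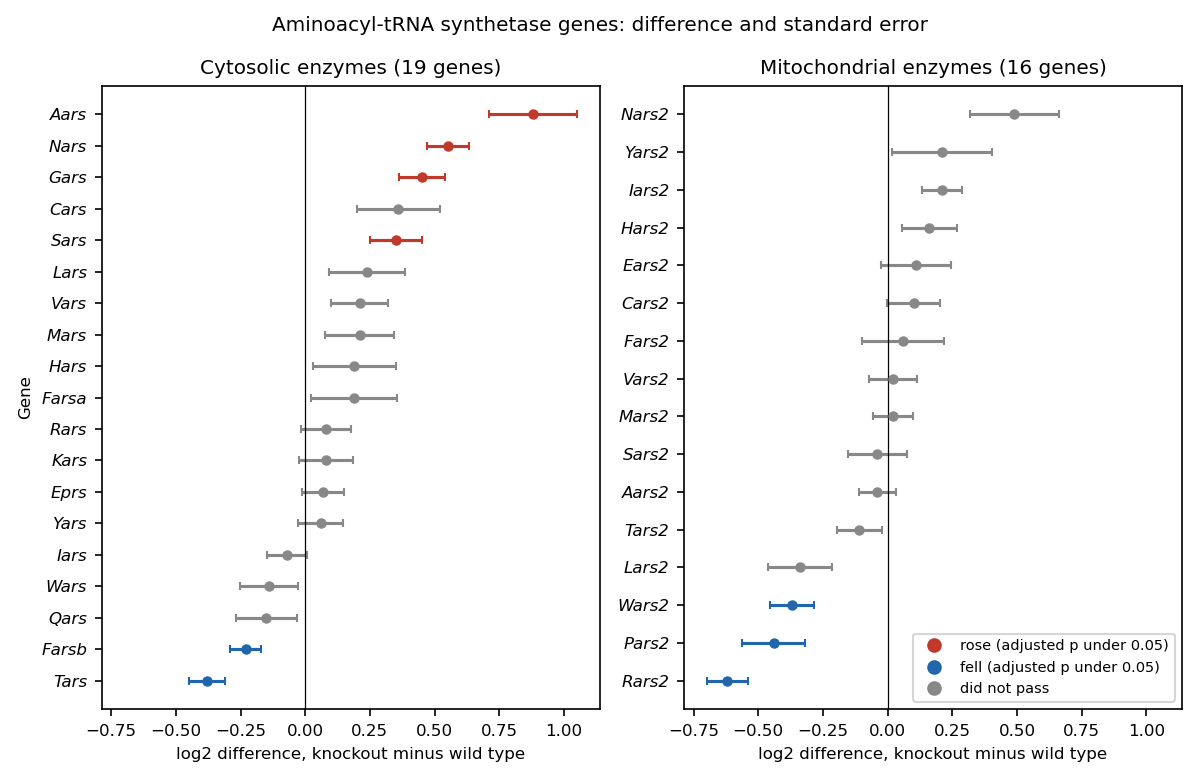
Log2 difference of signal between knockout and wild type for each synthetase gene, with its standard error from the fit (4 arrays per group). Red and blue mark genes that passed, and grey those that did not; Aars lies highest at 0.88 and Rars2 lowest at -0.62.

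Aars, which charges alanine, had the largest rise. On wild-type arrays 1 to 4 it read 11.23, 10.89, 11.00 and 11.30 in log2 units, while on knockout arrays 1 to 4 it read 11.81, 12.52, 11.80 and 11.83. The groups did not overlap, and knockout array 2 stood above the other knockout arrays. The log2 difference was 0.88 ± 0.17 (SE, 4 arrays per group), or 1.85-fold (limma, adjusted p = 0.00681). Without knockout array 2 the difference was 0.71 (adjusted p = 0.00382). The second Aars probe set also rose, 2.20-fold (adjusted p = 0.013).

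Nars, which charges asparagine, read 12.60, 12.71, 12.63 and 12.62 on the wild-type arrays and 13.07, 13.37, 13.20 and 13.12 on the knockout arrays. The wild-type values lay close together, and every knockout value was above them. The rise was 1.46-fold, a log2 difference of 0.55 ± 0.0813 (SE, limma, adjusted p = 0.00166), and the second probe set rose 1.39-fold. The amino acid it charges is made in cells by asparagine synthetase, from Asns, which also rose and is described with the Atf4 targets.

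Gars, the glycine enzyme of both compartments, read 11.55, 11.50, 11.47 and 11.71 on the wild-type arrays against 12.01, 12.19, 11.95 and 11.88 on those of the knockout. Its groups did not overlap, and the rise was 1.37-fold (log2 difference 0.45 ± 0.0893 SE, limma, adjusted p = 0.00778). Kars, the lysine enzyme that also serves both compartments, read 10.54 ± 0.202 and 10.62 ± 0.0922 (SD, n = 4 and 4) and did not pass (limma, adjusted p = 0.693).

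Sars charges serine onto its own transfer RNA and onto the one later converted to carry selenocysteine. It read 11.68, 11.76, 11.67 and 11.82 on the wild-type arrays against 12.05, 12.35, 11.93 and 11.98 on those of the knockout, without overlap. The rise was 1.27-fold (log2 difference 0.35 ± 0.0998 SE, limma, adjusted p = 0.0427). This call was near the threshold and ended without any one of 7 of the 8 arrays (adjusted p up to 0.095). The second Sars probe set rose 1.43-fold (adjusted p = 0.00337).

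Tars, which charges threonine, moved the other way. It read 10.20, 10.13, 10.02 and 10.18 on the wild-type arrays against 9.77, 9.73, 9.79 and 9.73 on those of the knockout. Every knockout array was below every wild-type array, and the 4 knockout values lay close together. The log2 difference was -0.38 ± 0.068 (SE, limma, adjusted p = 0.00478), which makes it 1.30-fold lower.

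Farsb encodes the beta subunit of the phenylalanine enzyme, which works with the alpha subunit from Farsa. Farsb read 12.18, 12.20, 12.20 and 12.21 on the wild-type arrays against 11.97, 12.00, 11.92 and 11.98 on those of the knockout, a small difference of -0.23 ± 0.0608 (SE, log2, limma, adjusted p = 0.0295) between groups of very even values. The call ended when any single array was left out (adjusted p up to 0.0718). Another Farsb probe set fell by 0.48 on the log2 scale (adjusted p = 0.00108), and the other two did not pass. Farsa read 9.40 ± 0.228 and 9.59 ± 0.316 (SD, n = 4 and 4), with a log2 difference of 0.19 that did not pass (limma, adjusted p = 0.501).

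**Figure D2:**
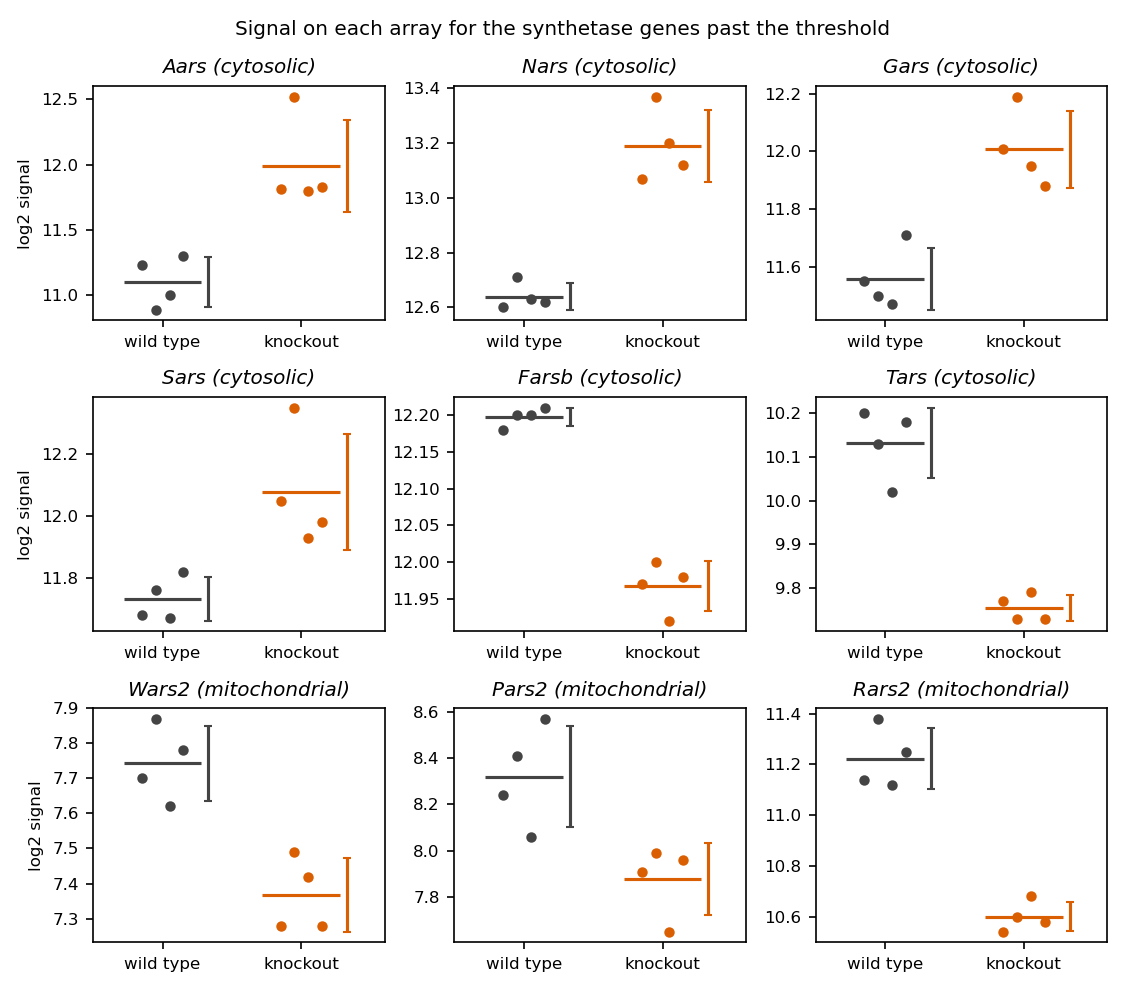
Log2 signal on each of the 4 wild-type (grey) and 4 knockout (orange) arrays for the 9 synthetase genes that passed, points ordered by array number. The line is the group mean and the bar its SD, axes do not start at 0, and in all 9 panels the groups are apart. Knockout array 2 is the highest knockout array in Aars, Nars, Gars and Sars, which rose, and in Farsb, Pars2 and Wars2, which fell.

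The remaining 13 cytosolic genes did not pass, with log2 differences from -0.15 to 0.36 and adjusted p from 0.181 to 0.731. Of these, 10 lay above 0 and 3 below. Cars, the cysteine enzyme, had the largest of these differences (9.42 ± 0.249 and 9.78 ± 0.283, SD, n = 4 and 4, limma, adjusted p = 0.181). Lars (0.24), Mars (0.21), Vars (0.21), Hars (0.19) and Farsa (0.19) followed, then Rars, Kars, Eprs and Yars, all of them at a log2 difference under 0.1. Iars (-0.07), Wars (-0.14) and Qars (-0.15) were below 0. With 4 arrays per group these values do not show that the genes are the same in both genotypes.

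Enzymes of the multisynthetase complex (Eprs, Iars, Kars, Lars, Mars, Qars and Rars measured) gave 0 calls among 7 genes (also 0 in limma at an unadjusted p under 0.05), with a median log2 difference of 0.08. The other 12 cytosolic genes held all 6 cytosolic calls, 4 that rose and 2 that fell, beside 8.18% and 12.8% of all genes. At such shares few calls fall among any 7 genes, and the contrast was not tested. Of the 3 scaffold proteins that hold the complex together, Eef1e1 fell from 12.13 ± 0.0859 to 11.70 ± 0.0989 (SD, n = 4 and 4), a log2 difference of -0.43 (limma, adjusted p = 0.00491). Aimp2 had a difference of -0.06 and did not pass. Aimp1 varied widely among wild-type arrays (8.36 ± 1.14, SD, n = 4) and did not pass either.

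By structural class, 7 of the 9 genes that passed encode class II enzymes (4 rose and 3 fell of 16 measured) and 2 encode class I enzymes (0 rose and 2 fell of 19). The shares over all genes were 8.18% that rose and 12.8% that fell. All 10 class I cytosolic genes were among those that did not pass. The difference between the classes was not tested. Groups did not overlap in 10 of the 35 genes, beside 26.2% of all genes. They were the 9 that passed and Iars2, the mitochondrial isoleucine enzyme, which did not pass (log2 difference 0.21, limma, adjusted p = 0.0934).

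Of the mitochondrial enzymes, Rars2, which charges arginine, fell the most. It read 11.14, 11.38, 11.12 and 11.25 on the wild-type arrays against 10.54, 10.60, 10.68 and 10.58 on those of the knockout. The groups were well apart, with a log2 difference of -0.62 ± 0.0793 (SE, limma, adjusted p = 0.00072), or 1.54-fold lower. Its cytosolic counterpart Rars had a log2 difference of 0.08 and did not pass.

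Wars2, the mitochondrial tryptophan enzyme, read 7.70, 7.87, 7.62 and 7.78 on the wild-type arrays against 7.28, 7.49, 7.42 and 7.28 on those of the knockout. All knockout values were lower, and the gene was 1.29-fold lower (log2 difference -0.37 ± 0.0842 SE, limma, adjusted p = 0.0148). Its second probe set had a similar difference of -0.34 on the log2 scale with wider scatter and did not pass (adjusted p = 0.197). The cytosolic gene Wars, at -0.14, did not pass.

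Pars2 charges proline in mitochondria, where the cytosol uses the joint glutamate and proline enzyme of Eprs. Pars2 read 8.24, 8.41, 8.06 and 8.57 on the wild-type arrays against 7.91, 7.99, 7.65 and 7.96 on those of the knockout. The groups came close without overlapping, and the gene was 1.36-fold lower (log2 difference -0.44 ± 0.122 SE, limma, adjusted p = 0.0353). The call ended without any one of 6 of the 8 arrays (adjusted p up to 0.0906). Eprs had a difference of 0.07 and did not pass.

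The other 13 mitochondrial genes had log2 differences from -0.34 to 0.49 and adjusted p from 0.0864 to 0.92, with 9 above 0 and 4 below. Nars2, for asparagine, read 6.09, 5.61, 5.30 and 5.43 on the wild-type arrays against 6.25, 5.87, 5.96 and 6.32 on those of the knockout. Wild-type array 1 lay within the knockout range. With all arrays Nars2 had the largest difference that did not pass (0.49, limma, adjusted p = 0.0864), and without wild-type array 1 it passed (0.65, adjusted p = 0.0123). Nars2 also passed with array weights (0.56, limma, adjusted p = 0.0418) and with probe sets averaged (0.31, adjusted p = 0.0224). Lars2, for leucine, had a difference of -0.34 (10.14 ± 0.26 and 9.80 ± 0.087, SD, n = 4 and 4, limma, adjusted p = 0.101), and without wild-type array 2 it passed (-0.46, adjusted p = 0.00771). Iars2, Yars2, Hars2, Ears2 and Cars2 lay between 0.10 and 0.21, Fars2, Mars2 and Vars2 between 0.02 and 0.06, and Sars2, Aars2 and Tars2 between -0.11 and -0.04.

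Probe sets differed in their call for Ears2, the mitochondrial glutamate enzyme. Its brightest probe set did not pass (8.41 ± 0.228 and 8.51 ± 0.205, SD, n = 4 and 4). A dimmer one read 5.83, 5.79, 5.72 and 5.83 on the wild-type arrays against 6.83, 6.93, 6.93 and 6.99 on those of the knockout. Its log2 difference was 1.13 (limma, adjusted p = 1.23e-05). Signal this low in wild type was not shown to be above background, so no fold is given. Of the remaining Ears2 probe sets, 1 rose (log2 difference 0.31, limma, adjusted p = 0.0492) and 1 did not pass (0.32, adjusted p = 0.054). Their wild-type signal was also low, at 6.49 and 6.23. All 4 lay above 0, and which transcripts the probe sets read was not examined. With its probe sets averaged, the dim one included, Ears2 passed (log2 difference 0.46, limma, adjusted p = 0.00086). Over the 40 probe sets of cytosolic members 7 rose and 3 fell, and over the 32 of mitochondrial members 2 rose and 3 fell, beside 6.82% and 9.31% of all probe sets. In 0 genes did probe sets pass in opposite directions, and of 23 genes with more than 1 probe set, Eprs and Fars2 had probe sets on both sides of 0.

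**Figure D3:**
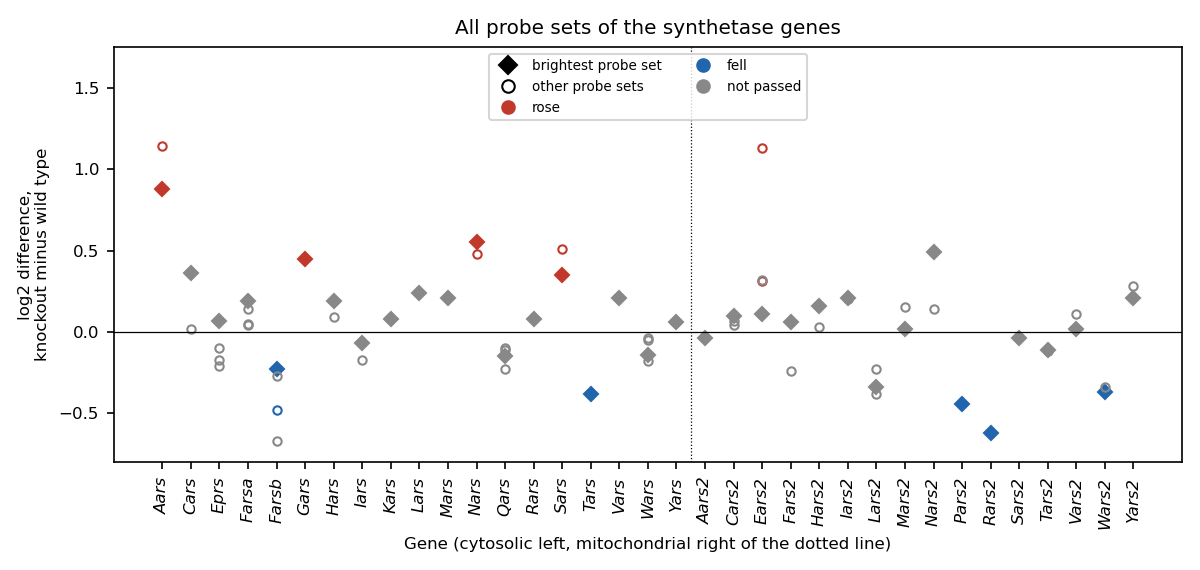
Log2 difference, knockout minus wild type, for every probe set of the synthetase genes. Diamonds are the brightest probe set of a gene and circles the others, coloured by call; the red circle at 1.13 belongs to Ears2, whose diamond is grey.

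Amino acids with separate cytosolic and mitochondrial enzymes allow the counterparts to be set side by side, in 15 pairings when both phenylalanine subunits are set against Fars2. In 0 pairings did both genes pass. The cytosolic gene alone passed in 5 (Aars, Farsb, Nars, Sars and Tars), and the mitochondrial gene alone in 2 (Rars2 and Wars2). Over all genes 8.18% rose and 12.8% fell, and at such shares both genes would pass in few of 15 pairings. Aars rose by 0.88 on the log2 scale where Aars2 differed by -0.04, and Sars by 0.35 where Sars2 differed by -0.04. Nars and Nars2 had differences of 0.55 and 0.49, of which the first passed. Nars2 was dim, at 5.61 in wild type, and how far it lies above background is unknown. Tars, at -0.38, and Tars2, at -0.11, were both below 0. The difference between counterparts was not tested.

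Of 13 cytosolic synthetases commonly given as targets of Atf4, a list written from memory, 4 rose (Aars, Gars, Nars and Sars), Tars fell and 8 did not pass. The median log2 difference was 0.21, and over all genes 8.18% rose and 12.8% fell. Of the other 6 measured cytosolic genes, 0 rose and Farsb fell, and their median was 0.08. The start-site letters shown above were present in Aars and Gars, which rose, in Tars, which fell, and in Iars and Yars, which did not pass. They were not found in the Sars window.

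Atf4 itself averaged 12.41 ± 0.324 on wild-type and 12.92 ± 0.234 on knockout arrays (SD, n = 4 and 4) and did not pass (limma, adjusted p = 0.0723), though it did without wild-type array 1 (log2 difference 0.63, adjusted p = 0.0289), without knockout array 4 (0.61, adjusted p = 0.047) and with cyclic loess scaling (0.59, adjusted p = 0.0457). Under the other 15 alternatives Atf4 did not pass (limma, adjusted p up to 0.174 with 1 array left out). In a list of 30 made of Atf4 and genes other than synthetases known as its targets, 15 rose and 1 fell. The shares of all genes were 8.18% and 12.8%, and the median log2 difference in the list was 0.47. The list was written with the rise of Asns and Shmt2 in these arrays already known, so its direction has no independent support here. Slc7a3, a carrier of cationic amino acids, rose from 5.94 ± 0.933 in wild type, where 3 arrays read 5.43 to 5.51 and array 1 read 7.34, to 9.86 ± 0.349 (SD, n = 4 and 4, limma, adjusted p = 0.000211). No fold is given for it, since wild-type signal this low was not shown to be above background. Atf5, a transcription factor, rose 1.82-fold, Shmt2, which makes glycine and one-carbon units from serine in mitochondria, 2.06-fold, and Asns 7.15-fold. Slc7a11, which imports cystine, fell by 0.78 on the log2 scale (limma, adjusted p = 0.00213). Among 15 measured genes that sense uncharged transfer RNA or act on eIF2, 0 rose and 1 fell, and at an unadjusted limma p under 0.05 these counts were 0 and 3. The gene that fell was Eif2ak4, which encodes GCN2 (10.29 ± 0.155 to 9.89 ± 0.0821, SD, n = 4 and 4, limma, adjusted p = 0.0154). This holds for its brighter probe set. Its other one, used when probe sets with a suffixed name were left out, differed by -0.03 on the log2 scale (limma, adjusted p = 0.874).

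Of 14 other genes of transfer RNA charging and proofreading that were measured, 1 rose and 3 fell, beside 8.18% and 12.8% of all genes, with a median log2 difference of -0.08. Sepsecs, which makes the selenocysteine carried by its transfer RNA, fell from 10.27 ± 0.145 to 9.52 ± 0.203 (SD, n = 4 and 4), or 1.69-fold (limma, adjusted p = 0.00195). Pstk, the kinase of the step before it and after Sars, fell by 0.44 on the log2 scale (limma, adjusted p = 0.0436), a call that ended without any one of 7 of the 8 arrays (adjusted p up to 0.0997), with the title number described below as a random block (adjusted p = 0.0522), with cyclic loess scaling (0.0947) and with probe sets averaged (0.0624). Dtd1, which removes D-amino acids from transfer RNA, fell by 0.59 on the log2 scale (limma, adjusted p = 0.0156), and did not pass when its probe sets were averaged (-0.26, adjusted p = 0.123). Gatc, a subunit of the mitochondrial amidotransferase that makes glutaminyl transfer RNA, rose 1.27-fold (limma, adjusted p = 0.0175), a call that ended without wild-type array 4 (adjusted p = 0.0504). Qrsl1, the catalytic subunit of that amidotransferase, read 6.79 ± 1.23 and 7.87 ± 0.413 (SD, n = 4 and 4), did not pass (limma, adjusted p = 0.207), and passed without wild-type array 1 (adjusted p = 0.0263). Another list held 11 measured genes for elongation factors, which bring charged transfer RNA to the ribosome or move it on, and for their regulators. Eef2k, a kinase of an elongation factor, was in that list. Of the 11 genes 0 passed, and 1 was lower at an unadjusted limma p under 0.05.

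The cytosolic genes tended to be high on the same arrays. Averaged over the 19 cytosolic genes, as log2 signal minus each gene's wild-type mean, wild-type arrays 1 to 4 lay at -0.0136, -0.0987, -0.0249 and 0.137. Knockout arrays 1 to 4 lay at 0.117, 0.36, 0.0621 and 0.082. The groups overlapped, because wild-type array 4 lay above knockout arrays 1, 3 and 4. Knockout array 2 was the highest knockout array in 17 of 19 cytosolic genes and 7 of 16 mitochondrial genes, beside 27.8% of all genes. Within wild type, array 4 gave the top value in 13 of 19 cytosolic genes, beside 25.3% of all genes. Without knockout array 2 the cytosolic median was 0.09 in place of 0.19, and 3 genes rose and 1 fell, with the calls of Sars and Farsb ended. Without wild-type array 2 the cytosolic median was 0.08, with probe sets averaged it was 0.10, and with cyclic loess scaling it was 0.29.

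Averaged over the 16 mitochondrial genes, wild-type arrays lay between -0.0745 and 0.0675 and knockout arrays between -0.1 and 0.0104, and the groups overlapped. The 30 Atf4-related genes lay between -0.117 and 0.284 on wild-type arrays, with array 1 the highest, and between 0.517 and 0.863 on knockout arrays, with array 2 the highest. Knockout array 2 was the highest knockout array in 23 of those 30 genes. Without wild-type array 1, 3 cytosolic genes rose and 1 fell, and 1 mitochondrial gene rose and 2 fell. The calls of Sars, Farsb and Pars2 ended without it, and Nars2 passed.

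**Figure D4:**
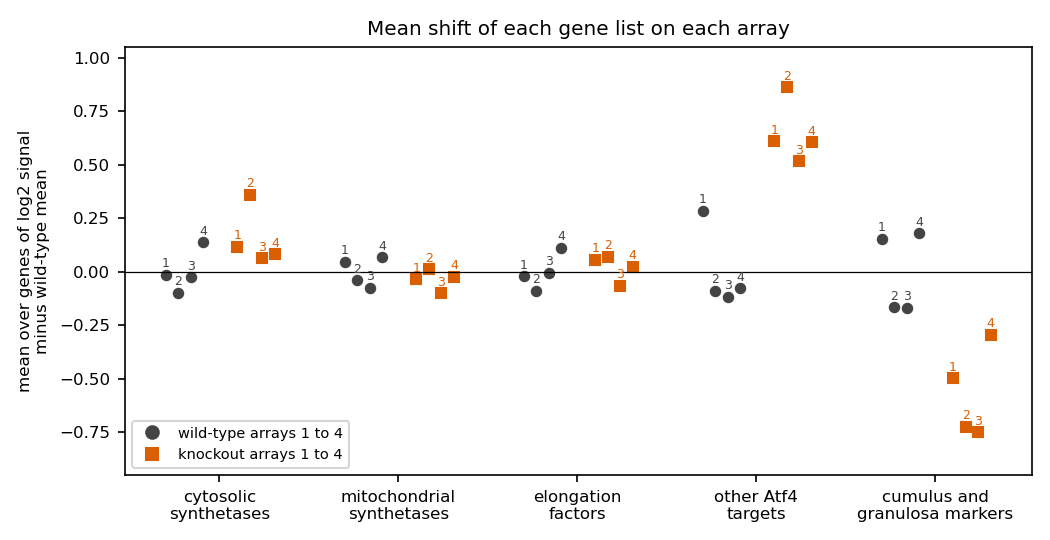
Mean over the genes of each list of log2 signal minus the gene's wild-type mean, on each array (grey, wild type; orange, knockout; digits are array numbers). The groups overlap for cytosolic and mitochondrial synthetases and elongation factors and are apart for the other Atf4 targets and the cumulus and granulosa markers; knockout array 2 is the highest knockout array for the cytosolic synthetases, at 0.36.

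The sample titles carry a first number, of unstated meaning, that wild-type array 1 shares with knockout array 2 and wild-type array 2 with knockout array 4. With this number as a fixed block, an alternative added after the data were seen, the genotype difference rests on those 4 arrays and 2 residual degrees of freedom remain. In that fit Aars passed (log2 difference 1.11, limma, adjusted p = 0.0238), and the other 8 genes did not. Of these, Rars2 (-0.67, adjusted p = 0.0516) and Nars (0.59, adjusted p = 0.0807) were nearest the threshold. Over all 45037 probe sets, 2191 passed in that fit, beside 3072 that rose and 4192 that fell without the block. With the number as a random block all 9 passed.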

How the data were processed

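The submitters' processing notes name RMA and Partek, and their versions were not given. RMA subtracts background, brings arrays to a common distribution and combines the probes of a set, and the values the authors deposited are log2 signals. Low signals are compressed by it, and the 2 rounds of amplification named in the labels' protocols favour 3′ ends. Detection calls were not used. The matrix held 45101 probe sets, of which 64 were controls, with 0 missing values and 0 columns of other samples.

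Knockout was compared with wild type by limma (version 3.58.1, R 4.3.3, lmFit and eBayes at their defaults, without covariates) on the 45037 other probe sets, all of which entered the Benjamini-Hochberg adjustment. An adjusted p under 0.05 counted as passing, and rose and fell refer to it. Folds were computed from log2 differences. Names came from the platform annotation (34945 probe sets with 1 symbol, 18193 genes) and start-site windows from RefSeq, build GRCm38.p6. The fit was tested on simulated data.

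Every member is accounted for, with array values for those that passed. Pathway genes are named where they passed (for the other Atf4 targets, the 4 of lowest p in either direction), and Atf4 and Eif2ak4 always. Aimp1, Aimp2, Qrsl1, Adgre1, Ptprc, Pecam1, the second probe sets and the array values of Nars2 were singled out after their values were seen. Members and lists were chosen with earlier results of these data known. Each mouse is a separate sample in the labels, and precision is limited by how many arrays there are. As alternatives, dim probe sets were filtered, 3 other scalings, another variance model, array weights and a random and, added after the data were seen, a fixed block for the first title number were used, genes were represented in 2 other ways, and each array was left out in turn.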

Additional observations from a re-analysis of the deposited data

Results flagged for a closer look

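In each group of 4 arrays, the gap between the highest or lowest array and its nearest neighbour was compared with the range of the group, for each synthetase gene, each pathway gene named for passing, Atf4, Aimp1, Aimp2, Qrsl1 and the mean of each compartment. Of 104 such sets, 6 had a far array, where chance gives about 1 in 20, or 5. In 4 of them knockout array 2 was the highest knockout array. Aars read 12.52 there against 11.80 to 11.83 on the other knockout arrays, and Asns read 12.40 against 11.61 to 11.69. Vars read 8.88 against 8.53 to 8.57, and Fars2 read 11.19 against 10.61 to 10.70. Slc7a3 read 7.34 on wild-type array 1 against 5.43 to 5.51 on the other wild-type arrays, and Aimp2 read 10.48 on wild-type array 2 against 10.79 to 10.83.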

How the results depend on the processing

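Up to 18 alternatives were computed per result. Among members, there was no value for Sars, Fars2, Tars2 and Yars2 when suffixed probe sets were left out. Hars2, Mars2 and Nars2 had none when dim probe sets were left out. The fixed block for the first title number was added after the data were seen. Aars kept its call under all 18, and Gars, Nars, Tars, Rars2 and Wars2 under the other 17. Farsb, Sars and Pars2 lost theirs under several. With the fixed block 1 cytosolic gene rose and 0 fell, 0 mitochondrial genes fell with a median of 0.10, 9 other Atf4 targets rose and 0 fell, and 0 scaffolds, charging genes and sensing genes passed. In that fit 2191 of all 45037 probe sets passed. Of cytosolic genes 1 fell with cyclic loess scaling, with suffixed probe sets left out, and without any single array. The cytosolic median was 0.08 with suffixed probe sets left out, 0.10 with probe sets averaged, 0.29 with cyclic loess and 0.08 to 0.22 without single arrays. Mitochondrial genes that rose numbered 1 with array weights, 2 with probe sets averaged, and 0 to 1 without single arrays (1 without wild-type array 1). Those that fell numbered 4 with probe sets averaged, 2 with cyclic loess and 2 to 3 without single arrays. With 1 array left out, other charging genes that rose numbered 0 to 2 (0 without wild-type array 4, 2 without wild-type array 1), sensing genes that fell 1 to 2 (2 without wild-type array 1), and other Atf4 targets that fell 1 to 2 (2 without wild-type array 3 or knockout array 2). Sensing genes that fell also numbered 2 with dim probe sets left out, median scaling, array weights and probe sets averaged. From the elongation factor list, 1 gene fell with probe sets averaged and with suffixed ones left out. Among the 26 members that did not pass, differences near 0 changed sign in 10. With probe sets averaged Eprs was -0.10 and Fars2 -0.09. With cyclic loess Iars was 0.00, Aars2 0.03 and Sars2 0.04, and with quantile scaling Aars2 and Sars2 were 0.01. With median scaling Mars2 and Vars2 were -0.01. With the fixed block Qars was 0.10, Wars 0.04, Mars2 0.00 and Sars2 0.15. Without single arrays Yars ranged from -0.01 to 0.10, Fars2 from -0.08 to 0.16, Mars2 from -0.03 to 0.07, Sars2 from -0.13 to 0.03 and Vars2 from -0.06 to 0.06. The cause of these changes was not tested. The random block had a consensus correlation of -0.0778. The scalings moved the median of all genes by less than 0.1 on the log2 scale. How far dim members such as Nars2 lie above background is unknown.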
